A study of Homo sapiens with 9 samples.

Results

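The chemokine genes CCL5, CX3CL1, CXCL10, CXCL11 and CCL2 were followed through 9 RNA-seq libraries of A549, an established lung adenocarcinoma cell line. They were found by gene name in the deposited matrix, where each name matched a single row, and they are 5 of 58735 genes there and 5 of its 46 chemokine ligand genes. The members were chosen by their measured levels in the LINC00996 libraries, where most of them were low, so every difference that involves those libraries is given as a description without a test. Cells had been transfected with jetPRIME and a control plasmid, a plasmid for the long non-coding RNA LINC00996 or a plasmid for the long non-coding RNA AP001189.3, with 3 libraries per group. Transfection itself was common to all groups, and no untransfected cells were analysed here. The control libraries carry the labels PC3.1, PC3.2 and PC3.3, and are treated here as 3 replicates of a single control plasmid. The study's text speaks of extractions in triplicate, and its general sequencing methods cover designs with biological replicates, given as 2 rather than 3 per condition, and designs without them. Neither says whether these libraries came from separate cultures, so the tests below measure the spread between libraries, which may be technical.

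Chemokines are small secreted proteins that guide leukocytes along gradients through receptors on the leukocyte surface. CXCL10 and CXCL11 are ligands of CXCR3, which is carried by activated T cells and natural killer cells. CCL5 attracts T cells, monocytes and eosinophils, and CCL2 acts through CCR2 on monocytes. CX3CL1 is made as a membrane protein with a chemokine domain on a mucin stalk. It binds CX3CR1 and is released by the proteases ADAM10 and ADAM17. In epithelial cells these genes are transcribed after the sensing of viral nucleic acid, interferon or tumour necrosis factor. STAT and IRF proteins act at ISRE and GAS elements of such promoters, and NF-kB acts at kappaB elements.

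RefSeq promoter windows of GRCh38.p14 were matched for 2 of the 5 genes, CXCL10 and CXCL11, which lie side by side on chromosome 4. They are shown so that a reader can see which letters of the elements named above, and of AP-1, occur in this gene pair. The CXCL10 stretch is the 250 bases before its start, on the minus strand at chr4:76023498-76023747, and the CXCL11 stretch is 30 bases on the minus strand at chr4:76036132-76036161, which ends upstream of the RefSeq start but inside an exon of a GENCODE 29 transcript of CXCL11 that starts further upstream. Both lie within the span of ART3, a gene on the opposite strand. Both sequences read 5′ to 3′ toward the gene, and capitals mark motif matches.
CXCL10: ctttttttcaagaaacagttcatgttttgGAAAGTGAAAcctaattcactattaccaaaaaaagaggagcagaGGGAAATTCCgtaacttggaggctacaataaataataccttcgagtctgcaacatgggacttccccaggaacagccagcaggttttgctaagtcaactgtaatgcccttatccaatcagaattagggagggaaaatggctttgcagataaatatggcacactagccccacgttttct
CXCL11: tgcaTGACTCAaagaGGGAAATTCCtgtgc
In CXCL10 the first run of capitals is an ISRE core, searched as GAAANNGAAA, at 221 to 212 bases before the start. The second run is a kappaB match, searched as GGGNNNTTCC, at 177 to 168 bases before the start. In CXCL11 the first run is an AP-1 match, searched as TGANTCA, at 87 to 81 bases before the start, and the second is a kappaB match at 76 to 67 bases. The 10 letters GGGAAATTCC made up the kappaB match in both genes. The CXCL11 window also held a TATA box, searched as TATAAA, at 42 to 37 bases before the start. It further held a GAS match, searched as TTCNNNGAA, at 240 to 232 bases before the start and another at 18 to 26 bases past it, and it held no ISRE core in these letters. Over all 35116 RefSeq promoters of 300 bases, read on both strands, the ISRE core was found in 3.57%, the GAS letters in 7.66%, the kappaB letters in 6.52%, the AP-1 letters in 7.71% and the TATA box in 11.5%. The matches overlapped no other match in these windows, and they describe letters only. Elements spelled in other letters were not searched, so unmarked stretches may hold further sites.

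The libraries held between 15272450 and 18125447 counts on genes. The level of LINC00996 itself was 295 CPM with its plasmid against 0.419 CPM with the control plasmid, where CPM is the count scaled to library size with TMM factors. AP001189.3 stood at 123 CPM with its plasmid, at least 688-fold above a floor of 3 counts per control library. The counts do not tell plasmid transcripts from those of the chromosomal genes. Among replicates, the chi-square value per gene was 2.26 to 7.35 for every pair except those with LINC00996 replicate 1, which differed from LINC00996 replicates 2 and 3 by 22.6 and 33.7. No 2 replicates were alike within counting noise. Of 7 epithelial marker genes, KRT7, KRT8, KRT18, KRT19, CDH1 and EPCAM were present in every group, KRT19 and CDH1 at lower levels with LINC00996, while CLDN7 was barely detected, at no more than 13 counts. Of 13 leukocyte marker genes, 4 (CD2, CD3D, CD3G and MS4A1) were at 0 in every library, and the summed level of the 13 was 17.5 to 20.5 CPM in the control group, 17.1 to 21.1 CPM with LINC00996 and 15.0 to 22.7 CPM with AP001189.3. These are bulk libraries, in which fewer cells expressing a gene and less RNA per cell cannot be told apart.

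CCL5, the T cell and monocyte attractant also known as RANTES, is ENSG00000271503 at 35871491 to 35880793 of chromosome 17, minus strand (GRCh38). Control replicates 1 to 3 had 22590, 18867 and 19180 counts, which are 1328, 1174 and 1103 CPM. With LINC00996 it had 2314, 1691 and 2362 counts, or 127, 107 and 128 CPM. With AP001189.3 it had 16275, 15912 and 17471 counts, or 961, 1035 and 1059 CPM. The LINC00996 libraries lay far below all others, and the AP001189.3 libraries lay just below the lowest control library. The means were 1202 ± 115, 121 ± 11.5 and 1018 ± 50.7 CPM in the control, LINC00996 and AP001189.3 groups (SD, n = 3 each). An antisense gene, AC015849.1, overlaps CCL5 and had 1 to 10 counts, and whether the counting used strand is not given in the sources used here.

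CX3CL1, the membrane-bound chemokine fractalkine, is ENSG00000006210 on the plus strand of chromosome 16 from 57372458 to 57385048. Its counts were 1304, 1048 and 1233 in the control libraries, or 76.7, 65.2 and 70.9 CPM. They were 317, 202 and 285 with LINC00996, or 17.4, 12.8 and 15.4 CPM, and 2109, 2025 and 2341 with AP001189.3, or 125, 132 and 142 CPM. CX3CL1 thus took 3 separate levels, lowest with LINC00996 and highest with AP001189.3, and no library of one group reached another group's range. In the same order of groups, its means were 70.9 ± 5.73, 15.2 ± 2.28 and 133 ± 8.68 CPM (SD, n = 3 each).

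CXCL10 (ENSG00000169245, IP-10), a CXCR3 ligand, is transcribed from the minus strand of chromosome 4 at 76021117 to 76023497. Its counts were 621, 590 and 606 in the control libraries, or 36.5, 36.7 and 34.9 CPM. They were 56, 55 and 101 with LINC00996, or 3.07, 3.49 and 5.46 CPM, and 602, 855 and 967 with AP001189.3, or 35.6, 55.6 and 58.6 CPM. The LINC00996 libraries were separate from the rest, while AP001189.3 replicate 1 sat within the control range and AP001189.3 replicates 2 and 3 sat above it. The means were 36.0 ± 1.02, 4.01 ± 1.28 and 49.9 ± 12.5 CPM in the control, LINC00996 and AP001189.3 groups (SD, n = 3 each).

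CXCL11 (ENSG00000169248, I-TAC), the other CXCR3 ligand of the pair, lies on the same strand from 76033682 to 76041415. Its counts were 470, 471 and 487 in the control libraries, or 27.6, 29.3 and 28.0 CPM. They were 32, 59 and 68 with LINC00996, or 1.75, 3.74 and 3.68 CPM, and 418, 579 and 641 with AP001189.3, or 24.7, 37.6 and 38.8 CPM. As with CXCL10, the LINC00996 libraries were separate from the rest, and AP001189.3 replicates 2 and 3 sat above every control library. AP001189.3 replicate 1, within the control range for CXCL10, lay below every control library for CXCL11. The means were 28.3 ± 0.879, 3.06 ± 1.13 and 33.7 ± 7.85 CPM (SD, n = 3 each). ART3 overlaps CXCL10 and CXCL11 on the opposite strand and had 0 to 2 counts per library.

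CCL2 (ENSG00000108691, MCP-1), the monocyte attractant, lies on the plus strand of chromosome 17 from 34255218 to 34257203. Its counts were 2757, 2624 and 2704 in the control libraries, or 162, 163 and 156 CPM. They were 1685, 1672 and 1974 with LINC00996, or 92.2, 106 and 107 CPM, and 2831, 2502 and 3004 with AP001189.3, or 167, 163 and 182 CPM. The LINC00996 libraries were again the lowest, but CCL2 kept 63.4% of its control level there, and the AP001189.3 libraries overlapped the control libraries. The means were 160.3 ± 4.20, 102 ± 8.19 and 171 ± 10.1 CPM (SD, n = 3 each).

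**Figure D1:**
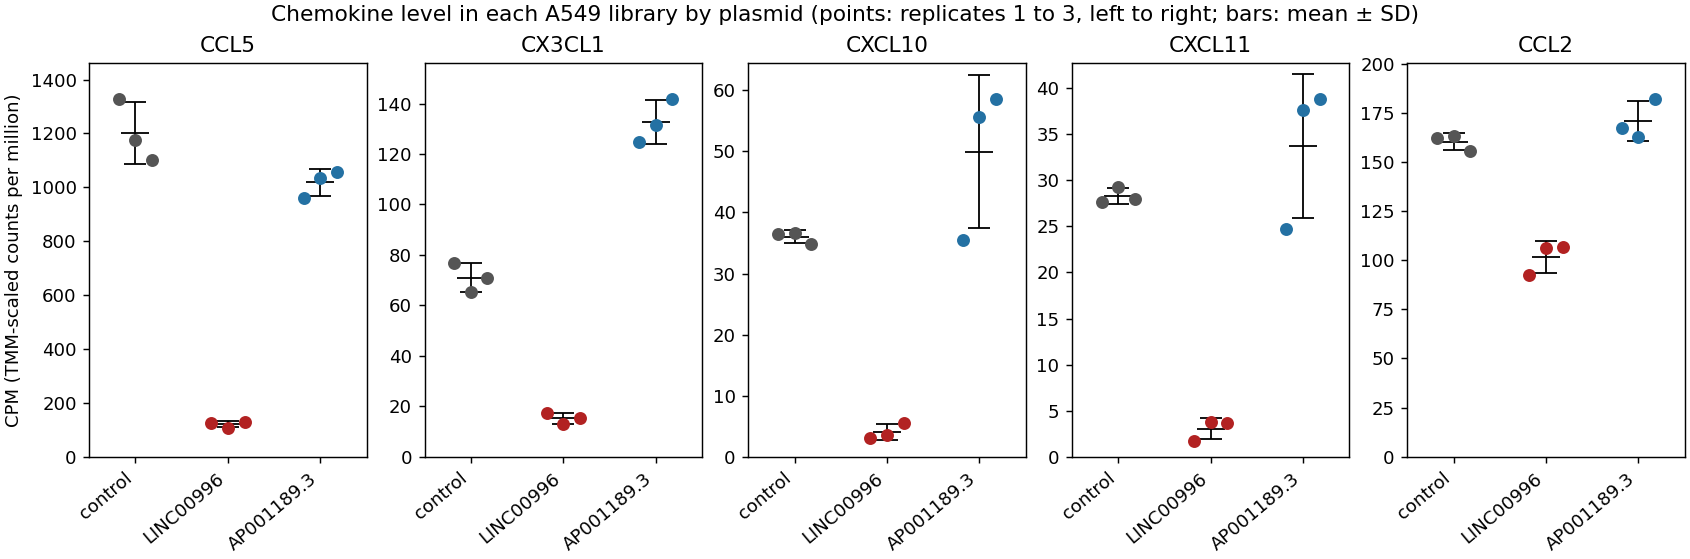
Level of each chemokine in CPM (y axis, linear, starting at 0, with its own range per gene) in the 9 libraries by plasmid group (x axis); points are replicates 1 to 3 from left to right, and bars are the mean and SD of 3 libraries. The LINC00996 libraries are lowest for all 5 genes, at 121 CPM against 1202 CPM in the control group for CCL5, and CX3CL1 is highest with AP001189.3 at 133 CPM.

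Levels of different genes were compared per length, on the FPKM scale deposited by the authors. In the control group the order was CCL5 at 789 FPKM, CCL2 at 80.1 FPKM, CXCL10 at 30.4 FPKM, CXCL11 at 14.7 FPKM and CX3CL1 at 11.8 FPKM, and the library ranges of neighbours in this order did not overlap. CCL5 was ranked 26 among 19951 protein-coding genes there and 2 among the chemokine ligands, below CXCL5. With AP001189.3, CX3CL1 passed CXCL11, at 20.6 to 23.5 FPKM against 12.8 to 20.2 FPKM, and CCL5 at 668 FPKM, CCL2 at 85.2 FPKM and CXCL10 at 42.1 FPKM kept their places. With LINC00996, CCL5 stood at 78.9 FPKM and CCL2 at 50.7 FPKM. The other 3 genes were then close together, since CXCL10 at 2.57 to 4.61 FPKM overlapped CX3CL1 at 2.12 to 2.86 FPKM, and CXCL11 lay below both at 0.904 to 1.95 FPKM. CCL5 was then ranked 5 among the ligands and 378 among protein-coding genes. The ratio of CCL5 to CCL2 in FPKM was 9.84 ± 0.800 in the control group, 1.57 ± 0.238 with LINC00996 and 7.85 ± 0.440 with AP001189.3 (SD, n = 3 each). The ratio of CXCL10 to CXCL11 stayed within a narrower band, at 2.06 ± 0.0685, 2.25 ± 0.677 and 2.39 ± 0.0555 (SD, n = 3 each).

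The 46 chemokine ligand genes of the matrix summed to 3495 ± 41.9 FPKM in the control group, 1686 ± 129 FPKM with LINC00996 and 3362 ± 37.3 FPKM with AP001189.3 (SD, n = 3 each). CCL5 alone was 22.6 ± 1.99% of this sum in the control group, 4.70 ± 0.511% with LINC00996 and 19.9 ± 0.878% with AP001189.3. The 5 chemokines together were 26.5 ± 2.03%, 8.15 ± 0.370% and 24.8 ± 1.38% (SD, n = 3 each). CCL2 went against this, since its share of the ligand sum was 2.29% in the control group and 3.01% with LINC00996. Of the 46 genes, 24 reached 10 counts in some library and 12 were at 0 in every library. CXCL9, the remaining CXCR3 ligand, was one of those at 0, although it lies between SDAD1 and CXCL10 on chromosome 4.

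**Figure D2:**
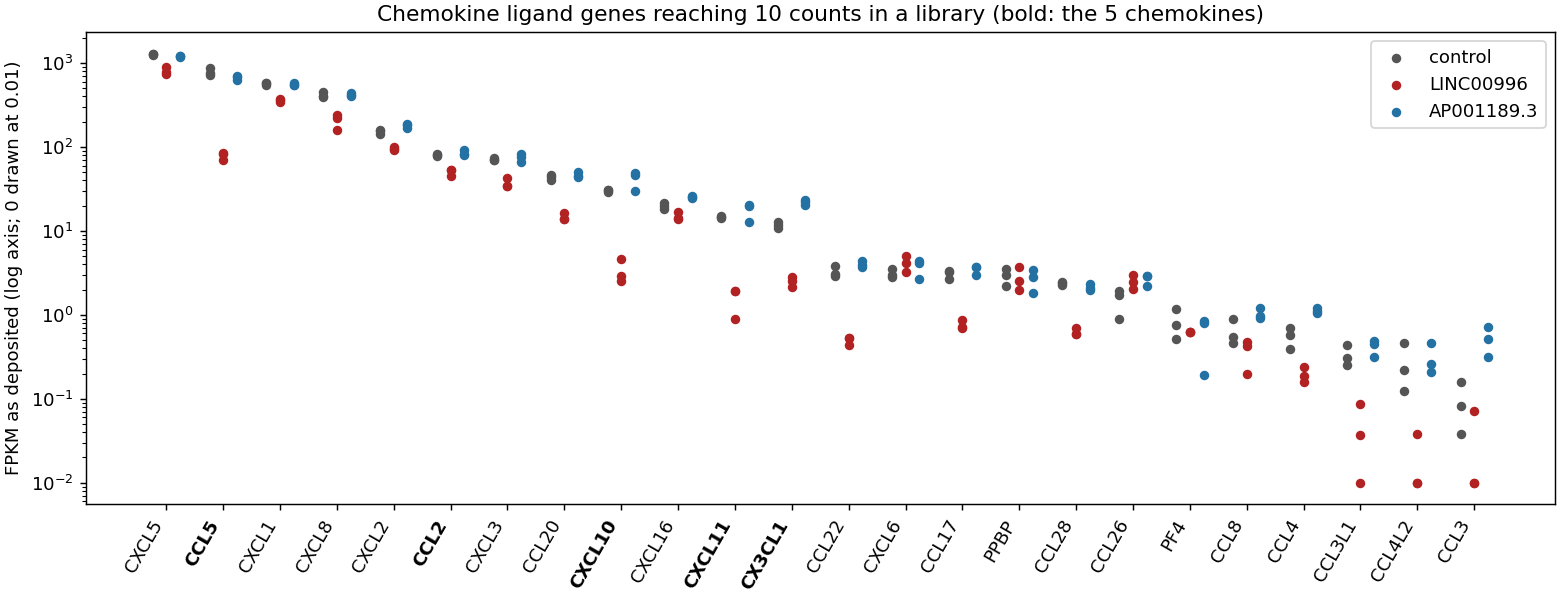
Deposited FPKM (y axis, log scale, 0 drawn at 0.01) of the 24 chemokine ligand genes that reached 10 counts in some library (x axis, ordered by level in the control group), with a point for each of the 9 libraries and bold names for the 5 chemokines. CCL5 stands next to CXCL5 at the top in the control and AP001189.3 groups and drops to 78.9 FPKM with LINC00996.

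LINC00996 overexpression was compared with the control plasmid. The study had the lncRNA plasmids custom made and calls the control PC3.1, without saying whether their backbones match. A difference between plasmids and an effect of the lncRNA cannot be told apart here. All 5 chemokines were lower with LINC00996 and none overlapped the control libraries. This is the contrast that led to their choice, so the counts carry no weight, and 40.4% of the 16097 genes tested did not overlap between these groups, while 11.6% were called lower. The log2 fold change was -3.32 for CCL5 (standard error 0.11), -3.22 for CXCL11 (standard error 0.22), -3.16 for CXCL10 (standard error 0.19), -2.22 for CX3CL1 (standard error 0.13) and -0.66 for CCL2 (standard error 0.09). These correspond to levels 9.97-fold, 9.26-fold, 8.99-fold, 4.67-fold and 1.58-fold below control. The values of CCL5, CXCL11 and CXCL10 overlapped within 1 standard error of each, and these genes held ranks 15, 17 and 18 from the most negative log2 fold change of all genes tested. CX3CL1 held rank 63 and CCL2 rank 1199. A log2 fold change of -1 or lower was reached by 3.56% of all genes tested, and CCL2 was the member outside that range. Without LINC00996 replicate 1, which stands apart, the log2 fold changes were -3.35 for CCL5, -2.93 for CXCL11, -2.99 for CXCL10, -2.32 for CX3CL1 and -0.59 for CCL2.

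AP001189.3 overexpression was compared with the same control libraries and tested. The AP001189.3 libraries had no part in the choice of the genes, but the control libraries did, so the test is not fully independent of the choice, which favours a value below control. CX3CL1 rose and CCL5 fell slightly, while CXCL10, CXCL11 and CCL2 did not pass the test. The log2 fold change of CX3CL1 was 0.90 (standard error 0.06, 95% interval 0.77 to 1.04), a 1.87-fold rise, with a Benjamini-Hochberg adjusted p of 1.31e-10 in edgeR's quasi-likelihood test, and all 3 AP001189.3 libraries exceeded all 3 control libraries. The log2 fold change of CCL5 was -0.24 (standard error 0.06, 95% interval -0.36 to -0.12), which left 84.7% of the control level, with an adjusted p of 0.00585 from the same edgeR test and no overlap between groups. This is the direction that the choice favours, so the p of CCL5 is not independent evidence. So 2 of the 5 were called, 1 in each direction, against 19.8% of the 16023 genes tested, with 11.4% called higher and 8.49% lower, and 2 of 5 did not overlap against 35.2% of all genes. CXCL10 had a log2 fold change of 0.47 (95% interval -0.05 to 0.99, edgeR adjusted p = 0.192), CXCL11 of 0.25 (95% interval -0.09 to 0.59, edgeR adjusted p = 0.299) and CCL2 of 0.09 (95% interval -0.02 to 0.20, edgeR adjusted p = 0.265). These intervals leave room for a large rise of CXCL10 but only a small change of CCL2. The CCL5 call was lost when all 9 libraries shared 1 fit (log2 fold change -0.24, edgeR adjusted p = 0.145), and without AP001189.3 replicate 1, whose CXCL10 and CXCL11 were the lowest of its group, CXCL10 and CXCL11 were called higher (log2 fold change 0.66 with edgeR adjusted p = 1.53e-06 and 0.43 with edgeR adjusted p = 0.00114).

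LINC00996 was also set against AP001189.3, again as a description. The log2 fold change was -3.63 for CXCL10 (standard error 0.24), -3.47 for CXCL11 (standard error 0.26), -3.13 for CX3CL1 (standard error 0.12), -3.08 for CCL5 (standard error 0.10) and -0.75 for CCL2 (standard error 0.10). The LINC00996 libraries were below the AP001189.3 libraries by 12.5-fold, 11.0-fold, 8.73-fold, 8.45-fold and 1.68-fold, and 5 of 5 did not overlap, as was so for 39.2% of the 16095 genes tested. CX3CL1 stood nearer to the CXCR3 ligands here than against the control plasmid, where its log2 fold change was -2.22.

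**Figure D3:**
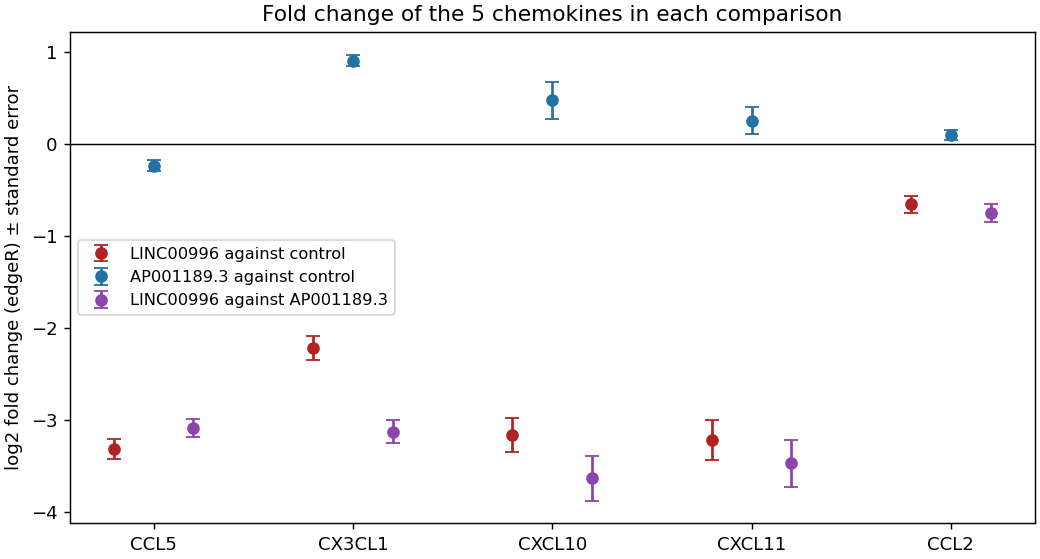
Log2 fold change (y axis) of the 5 chemokines (x axis) in the 3 comparisons, with bars for the standard error from edgeR. Against control, the LINC00996 points lie between -3.32 and -0.66, and the AP001189.3 points lie between -0.24 for CCL5 and 0.90 for CX3CL1.

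Across the 9 libraries, the log2 CPM of every pair of these genes correlated at a Pearson r of 0.94 to 0.99, which mostly restates the gap between the LINC00996 libraries and the rest. When each group's mean was removed, r was 0.80 between CCL5 and CX3CL1, 0.76 between CXCL10 and CXCL11, 0.78 between CXCL11 and CCL2, and -0.44 between CX3CL1 and CXCL11. Within groups, therefore, CXCL10 and CXCL11 varied together, as in AP001189.3 replicate 1, while CX3CL1 and CXCL11 did not. These values rest on 9 libraries that share their groups and scaling, and they are a description.

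The gene lists from here on were chosen with earlier results of these data known. Their counts and adjusted p-values are therefore a description and not independent evidence. Other chemokine ligands were mostly lower with LINC00996 too. Of 41 in the matrix, 15 were tested, 11 were called lower and 0 higher (edgeR, which was also the count at an unadjusted p under 0.05, while DESeq2 called 10 lower and 0 higher), against 11.6% of all genes called lower, and the median log2 fold change was -0.77 against 0.01 over all genes tested. CCL22, a ligand of CCR4, had 9.69 ± 1.46 CPM with the control plasmid against 1.49 ± 0.166 CPM (SD, n = 3 each), with a log2 fold change of -2.70 and an edgeR adjusted p of 5.09e-06. CCL20, a ligand of CCR6, went from 69.7 ± 5.27 to 23.7 ± 2.14 CPM (log2 fold change -1.56, edgeR adjusted p = 3.59e-06). CCL28, a mucosal ligand of CCR10 and CCR3, fell by 1.93 on the log2 scale and CCL17, the other CCR4 ligand, by 1.99. The neutrophil attractants CXCL8, CXCL3, CXCL2, CXCL1 and CXCL5 fell by 1.02, 0.94, 0.68, 0.67 and 0.65 on that scale, CXCL16 by 0.41 and CCL4 by 1.49. CCL17, CCL4 and CCL8 passed the filter on low counts only through the control libraries, where they are higher. The median is the value of CCL8 itself, so the count and the median that include these genes support nothing. With at least 10 counts required in every library, 9 ligands were called lower. CXCL6, CCL26, CCL8 and PPBP did not pass the test, at log2 fold changes of 0.40, 0.72, -0.77 and -0.07.

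With AP001189.3, 3 of 16 tested ligands were called higher and 0 lower (edgeR, with 5 higher and 0 lower at an unadjusted p under 0.05 and 2 higher and 0 lower by DESeq2), against 11.4% of all genes called higher. They were CXCL16 (log2 fold change 0.36, edgeR adjusted p = 3.34e-04), CXCL2 (0.24, edgeR adjusted p = 0.00220) and CCL4 (1.03, edgeR adjusted p = 0.0186), and none of the 3 was called with all 9 libraries in 1 fit, while 5 ligands were called higher without control replicate 1. CXCL16 is, like CX3CL1, a membrane-bound chemokine. CCL4 reached at most 41 counts and has near-identical copies, so its values are uncertain. CCL3L1, which also has near-identical copies, did not pass, at 0.31, and the median over the 16 was 0.21 against -0.00 over all genes tested.

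Several chemokine receptors were barely detected in these cells. CCR2 and CCR3 were at 0 in every library, CXCR3 had at most 1 count, CX3CR1 at most 3 and CCR1 at most 5. Of 23 receptor and decoy receptor genes, 4 were tested with LINC00996 and 2 were called lower, against 11.6% of all genes. CXCR4, the receptor of CXCL12, had a log2 fold change of -1.57 (edgeR adjusted p = 0.00125), and ACKR3, a scavenging receptor that also takes up CXCL11, had -1.19 (edgeR adjusted p = 0.00102). CCR7 and CCR10 did not pass, at -0.40 and -0.60. With AP001189.3, 0 of 5 were called by edgeR, with 0 at an unadjusted p under 0.05 and 0 by DESeq2, and their log2 fold changes ran from -0.16 for CXCR4 to 0.19 for CCR10, with ACKR4, a decoy receptor, at 0.16.

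Genes that shed, trim or retain chemokines were examined next. All 11 were tested with LINC00996, of which 5 were called lower and 1 higher, against 11.6% and 10.7% of all genes, so the higher call is near the background. The median log2 fold change was -0.19. SDC4, a heparan sulfate proteoglycan that binds chemokines at the cell surface, had a log2 fold change of -1.13 (edgeR adjusted p = 1.49e-05). DPP4, the protease that trims the amino terminus of CXCL10, CXCL11 and CCL5, went from 13.2 ± 1.43 to 6.42 ± 0.766 CPM (SD, n = 3 each; log2 fold change -1.04, edgeR adjusted p = 6.52e-04). ADAM17, which sheds CX3CL1, had -0.45 (edgeR adjusted p = 0.0140) and EXT1, a heparan sulfate polymerase, had -0.42 (edgeR adjusted p = 0.00757). The lower calls numbered 2 or 3 without any one of the control replicates. The higher call, of SDC3 at 0.50, was lost without control replicate 2 or 3, and 3 genes were called higher without LINC00996 replicate 3. With AP001189.3, 3 were called higher and 1 lower, against 11.4% and 8.49% of all genes, so the lower call is near the background. EXT1 and SDC4 rose by log2 fold changes of 0.24 and 0.22 (edgeR adjusted p = 0.00262 and 0.00263), and ADAM10 and ADAM17 did not pass, at -0.10 and -0.12, in the group where CX3CL1 was highest. The lower call was lost without control replicate 3, AP001189.3 replicate 2 or AP001189.3 replicate 3, and 0 of the 11 were called in either direction with all 9 libraries in 1 fit.

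Several interferon genes were lower with LINC00996 and higher with AP001189.3, in comparisons that share their control libraries. With LINC00996, 4 of 22 were tested and 3 were called lower, against 11.6% of all genes. IFNL1, a type III interferon of epithelia, went from 8.31 ± 1.09 to 1.94 ± 0.883 CPM (SD, n = 3 each; log2 fold change -2.09, edgeR adjusted p = 2.29e-04). IFNL2 and IFNL3 had -1.60 and -1.57, and IFNE did not pass, at -0.01. With AP001189.3, 6 were tested and 5 were called higher, against 11.4% of all genes, with a median log2 fold change of 1.37. IFNL1 rose to 18.4 ± 3.11 CPM (log2 fold change 1.14, edgeR adjusted p = 9.08e-07) and IFNL2 by 1.41 (edgeR adjusted p = 9.26e-08). IFNL3, IFNB1 and IFNL4 had 1.33, 1.53 and 1.69. Reads of IFNL2 and IFNL3 may be split between near-identical copies, IFNB1 and IFNL4 had at most 61 and 29 counts and passed the filter on low counts only through the AP001189.3 libraries, so the count and the median that include them support nothing. With at least 10 counts required in every library, 3 were called higher, as with all 9 libraries in 1 fit. IFNG was at 0 in every library.

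Interferon receptors, kinases, STAT and IRF genes were next. With LINC00996, 9 of 17 were called lower and 0 higher (edgeR, with 13 lower and 0 higher at an unadjusted p under 0.05 and 9 lower and 0 higher by DESeq2), against 11.6% of all genes called lower, with a median log2 fold change of -0.50. IRF1, a transcription factor of interferon responses, was at 92.9 ± 5.79 CPM against 186 ± 9.60 CPM with the control plasmid (SD, n = 3 each; edgeR adjusted p = 2.07e-05). The interferon gamma receptor chains IFNGR2 and IFNGR1 had -0.96 and -0.72, and STAT2, a subunit of the ISRE-binding complex ISGF3, had -0.50 (edgeR adjusted p = 0.00109). With AP001189.3, 4 were called higher and 3 lower, against 11.4% and 8.49% of all genes, and the median was 0.14. IRF1 rose to 274 ± 9.20 CPM (SD, n = 3; log2 fold change 0.56, edgeR adjusted p = 2.54e-08) and STAT2 rose by 0.32 (edgeR adjusted p = 2.40e-05), while IFNGR1 and IFNGR2 fell by 0.16 and 0.17. With all 9 libraries in 1 fit, 2 were called higher and 0 lower, and 1 was called lower without control replicate 2, AP001189.3 replicate 2 or AP001189.3 replicate 3.

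Of the nucleic acid sensors and their adaptors, 8 of 11 tested were called lower with LINC00996 and 0 higher (edgeR, with 9 lower and 1 higher at an unadjusted p under 0.05 and by DESeq2), against 11.6% of all genes called lower, and the median log2 fold change was -1.11. The cytosolic RNA sensors IFIH1 and DDX58 (RIG-I) had -1.11 and -1.23, their relative DHX58 had -1.31, and TMEM173 (STING) had -1.61. The edgeR adjusted p of these 4 ran from 3.90e-05 to 7.99e-05. With AP001189.3, 3 were called higher and 0 lower (edgeR, with 6 higher and 1 lower at an unadjusted p under 0.05 and 3 higher and 0 lower by DESeq2), against 11.4% of all genes called higher. TICAM1, the adaptor of TLR3, had 0.45 (edgeR adjusted p = 0.00604) and DHX58 0.34 (edgeR adjusted p = 0.00853), and 0 of the 11 were called in either direction with all 9 libraries in 1 fit.

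The NF-kB list holds subunits, kinases and inhibitors, with TNF, its receptor TNFRSF1A and the adaptors TRAF2 and TRADD. Of its 17 genes, 10 were called lower with LINC00996 and 0 higher (edgeR, with 11 lower and 1 higher at an unadjusted p under 0.05 and 10 lower and 0 higher by DESeq2), against 11.6% of all genes called lower, with a median log2 fold change of -0.50. The lower calls include TNF and TRADD. The kinase genes CHUK, IKBKB and RIPK1 and the kinase subunit IKBKG did not pass, at -0.00, -0.25, -0.20 and 0.07. TNFAIP3 (A20), a feedback inhibitor of NF-kB, was at 153 ± 7.91 CPM against 392 ± 25.6 CPM with the control plasmid (SD, n = 3 each; log2 fold change -1.36, edgeR adjusted p = 2.36e-06). The subunits NFKB2 and RELA had -0.92 and -0.80, and TNF, the cytokine that activates the pathway, had -1.47 (edgeR adjusted p = 0.00160). With AP001189.3, 9 were called higher and 1 lower, against 11.4% and 8.49% of all genes, so the lower call does not exceed the background. The median was 0.21. The subunit RELB had 0.47 (edgeR adjusted p = 2.24e-06) and the adaptor TRAF2 had 0.35 (edgeR adjusted p = 1.46e-04), and 5 were called higher without control replicate 2 and 2 with all 9 libraries in 1 fit. The lower call, of the subunit REL, was lost in that fit and without control replicate 2 or AP001189.3 replicate 2.

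**Figure D4:**
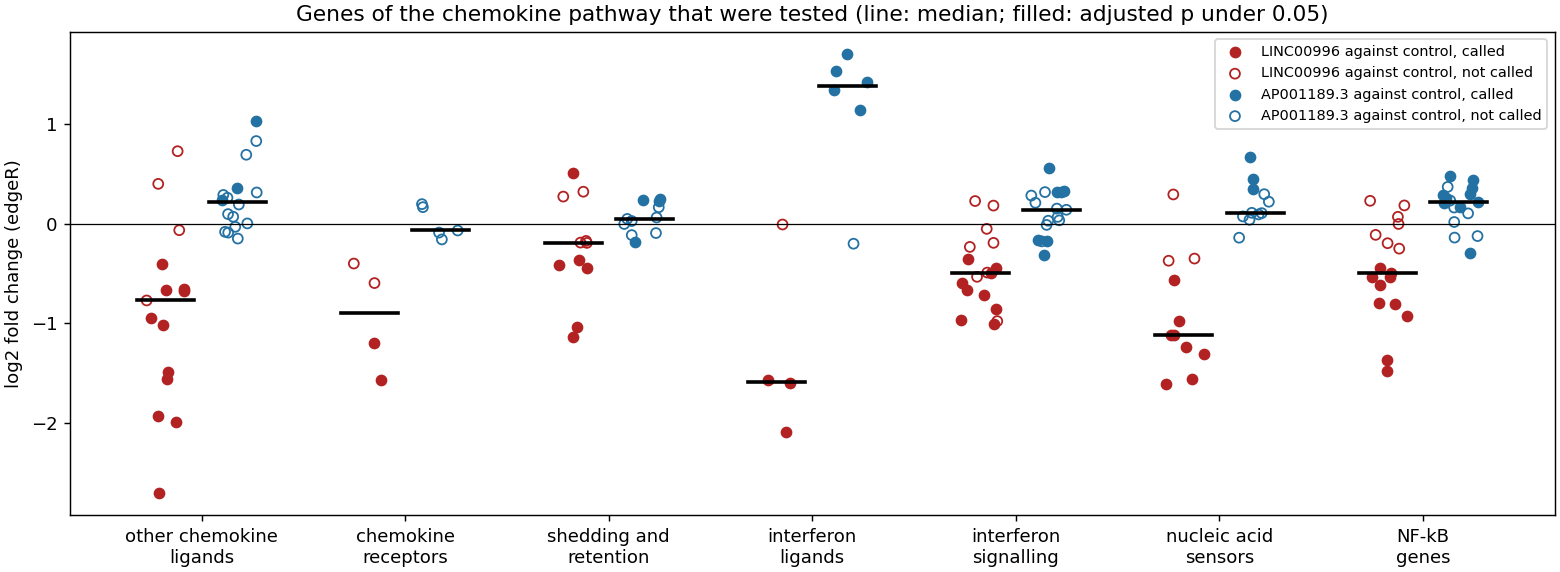
Log2 fold change (y axis) of every tested gene of 7 lists around the chemokines (x axis), for LINC00996 and AP001189.3 against control; filled points have an adjusted p under 0.05 in edgeR, and lines are medians. List medians lie between -1.58 and -0.19 with LINC00996 and between -0.07 and 1.37 with AP001189.3. The 1.37, of the interferon ligands, includes genes that passed the filter on low counts only through the AP001189.3 libraries, so it supports nothing.

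Leukocyte and epithelial markers were read beside these genes. Of the 13 leukocyte markers, only ITGAM and CD14 had enough counts to test, and 0 were called by edgeR or DESeq2 with either plasmid, with 1 (ITGAM, log2 fold change -0.43) at an unadjusted p under 0.05 with LINC00996 and 0 with AP001189.3. Among 6 tested epithelial markers, CDH1 and KRT19 were called lower with LINC00996, against 11.6% of all genes, at log2 fold changes of -0.89 and -0.40, with 1 lower call without any one of the control replicates or without LINC00996 replicate 2 or 3 and 3 without LINC00996 replicate 1, and KRT8 was called higher with AP001189.3, against 11.4% of all genes, at 0.19, a call that was lost with all 9 libraries in 1 fit. Whether a change in these cells' epithelial features had a part in the chemokine levels was not tested.

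Neighbouring genes were compared next, since chemokine genes lie in clusters. Within 100 kb of the start or end of a member, 42 other genes were in the matrix and 19 were tested. With LINC00996, 4 were called lower and 1 higher, against 11.6% and 10.7% of all genes. The lower calls of HEATR9 and CCL17 came through a filter on low counts that these genes passed only in the control libraries, so the count supports nothing, and the remaining 2 of 17 are near the background. CCL22 and CCL17, which flank CX3CL1 at 6268 and 19719 bases, had log2 fold changes of -2.70 and -1.99 beside -2.22 for CX3CL1. HEATR9, 2600 bases from CCL5, had -2.19 (standard error 0.56) at no more than 62 counts. PLLP had -0.54. TAF15, which overlaps HEATR9 on the opposite strand and ends 6876 bases from CCL5, was higher with LINC00996 (log2 fold change 1.15, edgeR adjusted p = 7.74e-04) and with AP001189.3 (0.54, edgeR adjusted p = 0.00113). The genes on either side of the CXCL10 and CXCL11 pair, SDAD1, NAAA and NUP54, did not pass the test with LINC00996, at -0.26, 0.19 and -0.24. Near CCL2, CCL7 reached at most 6 counts and CCL8 at most 25. With AP001189.3, NUP54 and SDAD1 were called lower, at -0.27 and -0.29, and TAF15 alone higher, against 8.49% and 11.4% of all genes, so these counts are near the background, while CCL22 and CCL17 did not pass, at 0.29 and 0.19. The remaining tested neighbours, MMP28, RDM1, AC015849.3, AC015849.5, LRRC37A9P, POLR2C, DOK4, CIAPIN1, COQ9 and ASIC2 did not pass in either comparison.

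**Figure D5:**
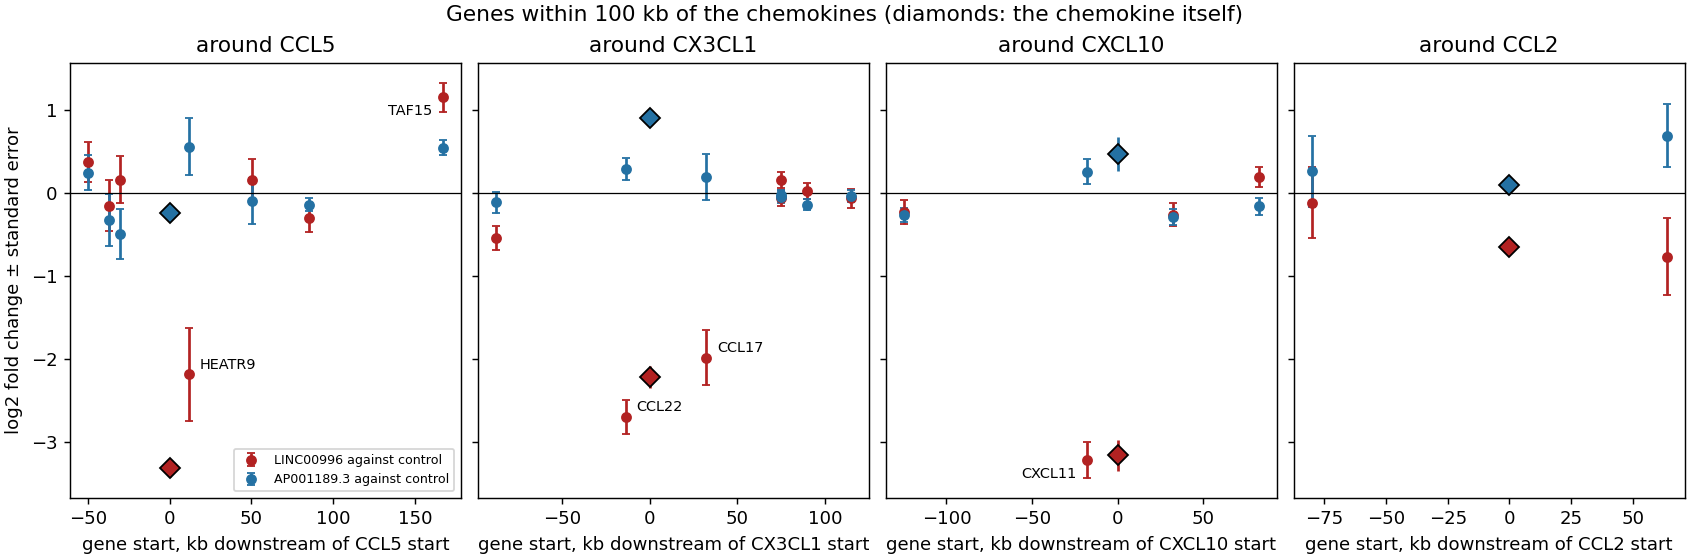
Log2 fold change against control (y axis, bars for the standard error) of tested genes whose start or end lies within 100 kb of a chemokine, by the distance in kb of the gene's start from the chemokine's start along its direction of transcription (x axis); diamonds are the chemokines, and the CXCL10 panel also shows CXCL11. CCL22 and CCL17 beside CX3CL1 are at -2.70 and -1.99 with LINC00996, while TAF15 is at 1.15.

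Among 10875 other protein-coding genes whose mean reached 5 CPM, the patterns most like the mean of the 5 chemokines over the 9 libraries belonged to JAG1 (Pearson r of 0.999 on log2 CPM), SERPINB9 (0.997), NFKBIZ (0.996), WARS (0.996), NFE2L3 (0.995) and PARP12 (0.995). JAG1, a NOTCH ligand, had 204 ± 0.682, 122 ± 5.43 and 215 ± 6.32 CPM in the control, LINC00996 and AP001189.3 groups (SD, n = 3 each). The nearest single gene was ABCC1 for CCL5 (0.998), TGM2 for CX3CL1 (0.998), WARS for CXCL10 (0.996), IFIH1 for CXCL11 (0.996) and GCH1 for CCL2 (0.997). TGM2, which makes transglutaminase 2, had 3088 ± 94.7, 1855 ± 105 and 4016 ± 29.9 CPM (SD, n = 3 each). It shares its order of groups with CX3CL1, which follows from its choice by likeness in these same libraries. As among the members, these r values mostly restate the gap between the LINC00996 libraries and the rest. The choice of the 6 was unstable, since 1 of them stayed with Spearman's rho and 2 stayed without LINC00996 replicate 1.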

How the data were processed

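RNA-seq of poly(A) RNA was made from A549 with the control, LINC00996 or AP001189.3 plasmid, 3 libraries each, in paired reads of 150 bp. According to the study's methods and the submitters' processing notes, alignment used HISAT2 2.0.5, and gene counting used featureCounts 1.5.0-p3. The counts deposited by the authors are raw and not normalized, and the FPKM values were made by the authors from count and gene length. The gene coordinates equal GENCODE 29 (GRCh38) for 58735 of 58735 genes.

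Counts were tested with edgeR 4.0.16 in R 4.3.3 (filterByExpr, TMM, robust quasi-likelihood test) on the 6 libraries of each of 3 comparisons, and a gene was called at an adjusted p under 0.05 (Benjamini-Hochberg, over all genes tested). Standard errors were derived from the F statistic. CPM values use TMM factors over all 9 libraries, and log2 CPM a prior count of 2. FPKM values served to compare levels between genes and for sums and ratios of ligands in each group, with no test. Floors cover counting error only. The procedure was tested on simulated counts. Alternatives were DESeq2 1.42.0, library size alone, no filter, a filter of 10 counts in every library, 1 fit of all libraries, a replicate block, thinning and leaving out each library.

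The chemokines and the gene lists were chosen with earlier results of these data known. The genes named are the 5 chemokines, up to 4 and 2 genes per list with the smallest adjusted p with LINC00996 and AP001189.3, every tested ligand, receptor, interferon and neighbour, the most alike genes and the overexpressed lncRNAs. IFNG, CXCL9, untested receptors, and genes given as checks or for their place in a pathway fall outside this rule and were added after their values were seen. Adjusted p-values are given for members only in the AP001189.3 comparison.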

Additional observations from a re-analysis of the deposited data

How the results depend on the processing

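Of 195 refits of the chemokines' log2 fold changes, 191 kept their direction and their side of the threshold or moved by less than the replicate spread, and 0 reversed. For AP001189.3 against control, CCL5 was not called with all 9 libraries in 1 fit (log2 fold change -0.24, edgeR adjusted p = 0.145), where 437 genes in all were called in place of 3180. CXCL10 was called with no filter on low counts (0.46, edgeR adjusted p = 3.01e-04). The cause of these shifts was not tested. With each library left out, CXCL10 ran from 0.33 to 0.66 and CXCL11 from 0.13 to 0.43, and both were called only without AP001189.3 replicate 1. The genes called ran from 1925 to 5481 for LINC00996 against control, highest without LINC00996 replicate 1 and under 3588 by more than 1.5 times without any one of the control replicates. They ran from 1914 to 3598 for AP001189.3 against control, lowest without AP001189.3 replicate 2, and from 1840 to 6828 for LINC00996 against AP001189.3, highest without LINC00996 replicate 1. With library size alone, the direction that held more calls turned in all 3 comparisons: the share of calls that were lower went from 52.0% to 45.4% for LINC00996 against control, from 42.8% to 51.7% for AP001189.3 against control and from 56.3% to 43.9% for LINC00996 against AP001189.3. The replicate numbers were not taken as pairs, since deviations of same-numbered libraries correlated at -0.02 to 0.15, not above 0.1 in every pair, although 4 of 6 libraries in each comparison correlated best with their own number, a hint from the data and not the design. A replicate block gave 4500, 3466 and 3772 calls in the 3 comparisons and changed no call of a chemokine with AP001189.3 (CCL5 adjusted p = 0.0237, CX3CL1 adjusted p = 7.03e-09 in edgeR). Low counts limit CXCL10 and CXCL11 with LINC00996, at 32 to 101 counts per library.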
